A study of Mus musculus with 2 samples.

Results

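The genes described here are the transforming growth factor beta (TGF-beta) ligands Tgfb1, Tgfb2 and Tgfb3, their receptors Tgfbr1, Tgfbr2 and Tgfbr3, and the Smads Smad2, Smad3, Smad4 and Smad7. They were chosen by symbol, as all probe sets that the platform annotation assigns to exactly 1 gene of this list, and made up 10 of the 18193 genes on the array, with 25 probe sets. A probe set is a group of short probes for 1 transcript. Gene expression was measured on 1-colour Affymetrix oligonucleotide arrays in T cells exposed to RPE (retinal pigment epithelium, the pigmented sheet of cells beneath the photoreceptors) and in control T cells. Both samples were labelled as from male mice of a C57 BL/6 background, 6 weeks old. The exposed sample was titled as T cells, with primary cultured RPE in its tissue field, while the title of the control named CD4 T cells. The number of animals, the stimulus, the length of the exposure, and whether cells touched were not stated in the labels. With 1 array per group no test was run, there is no sample-to-sample spread to set a difference against, and precision is limited by the number of arrays.

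TGF-beta is made as a precursor, cleaved by furin-type proteases, and held in a latent complex until it is released. The active ligand binds the type II receptor Tgfbr2, which phosphorylates the type I receptor Tgfbr1. The type I receptor then phosphorylates Smad2 and Smad3, and these enter the nucleus with Smad4, where the complexes bind DNA. In CD4 T cells the pathway is known for inducing Foxp3 and, together with interleukin-6, interleukin-17-producing (Th17) cells. RPE cells are known to make TGF-beta, which bears on why this pathway is of interest in T cells they have met.

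Most of the pathway differed little between the samples. The exceptions were the accessory receptor gene Tgfbr3, higher in exposed T cells, and the dim ligand gene Tgfb3, lower in them. The Tgfb3 difference is only a bound, since its exposed signal was under the median of its array. Signals are linear intensities, and a signal under the median of its array (16 on the exposed and 15.9 on the control array), called the floor here, was set to that median. Of the 10 genes, 9 were above the floor on at least 1 array and 8 on both. None of the 9 was at least 2-fold different, beside 1.06% of the 11015 genes compared. With 1.5-fold as the limit, Tgfbr3 was higher, 1 gene beside 3.12% of all genes. Tgfb3 was lower, with a bound exactly at that limit, 1 gene beside 3.87% of all genes. The log2 difference, RPE-exposed minus control, was negative in 7 of the 9 genes, against 51.5% of all genes compared, and its median was -0.18, against -0.0092. At the level of probe sets, 15 of the 18 that passed the floor on both arrays had a negative difference and 3 a positive one. Some of the 15 were close to 0, such as -0.00021 and -0.0056 in Smad4 and -0.0092 in Tgfbr2. The share over all probe sets was not counted, so this count is a description only. Probe sets of 1 gene share a target and are not replicates.

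**Figure D1:**
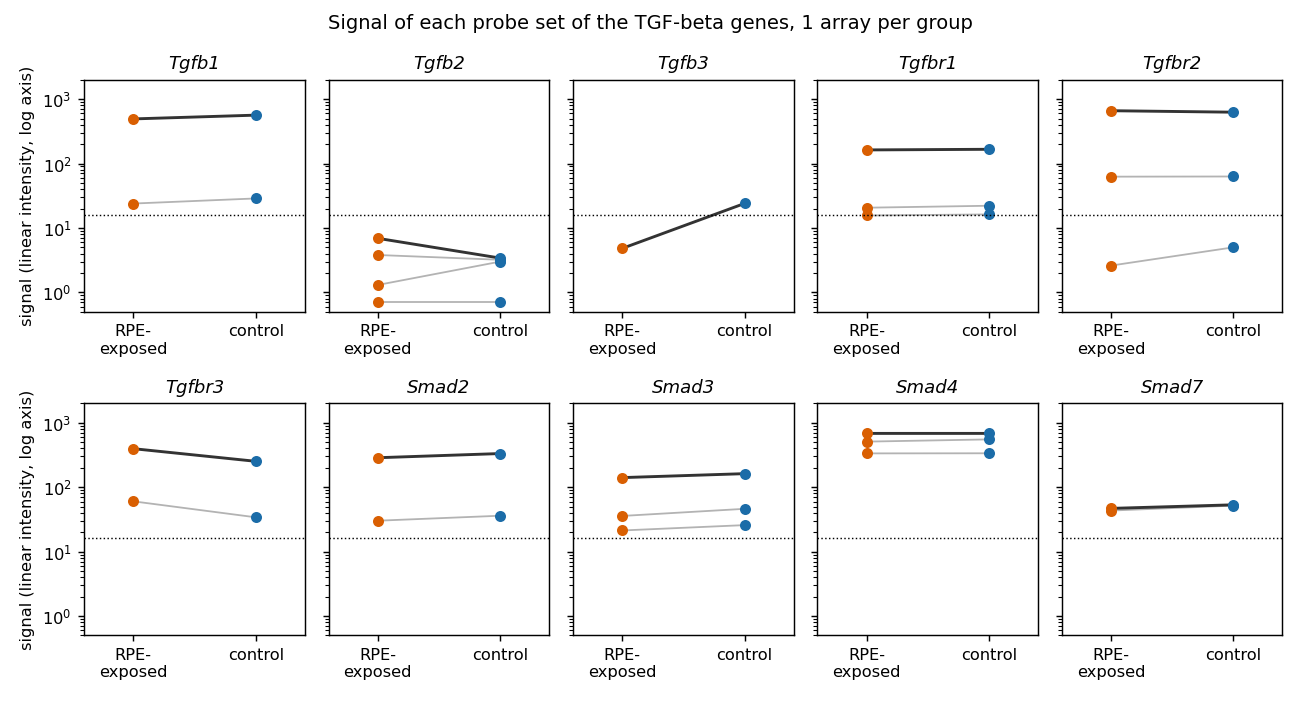
Signal of every probe set of the 10 genes (linear intensity on a log axis), with RPE-exposed T cells on the left and control T cells on the right of each panel, 1 array each. Dark lines join the probe set that stands for the gene, grey lines its other probe sets, and the dotted line is the floor of 16; both Tgfbr3 lines are higher in exposed T cells, and all 4 Tgfb2 probe sets lie under the floor.

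B-cell markers, and MHC class II genes that B cells also express, were lower in exposed cells, while other myeloid markers went both ways. T-cell markers had a summed signal of 12945.8 in exposed and 11253.4 in control cells, and all 9 were above the floor on both arrays. Of the CD3 chains, Cd3e gave 763.9 and 770.9, Cd3d 3505.9 and 3073.4, and Cd3g 1756.7 and 1520.2. The costimulatory receptor gene Cd28 gave 2319.2 in exposed and 1658.9 in control cells, above its range of like-level genes (-0.18 to 0.30). Although CD4 T cells were named for the control, the CD8 genes were bright in both samples. Cd8a gave 694.6 in exposed and 568.8 in control cells, and Cd8b1 gave 983.9 and 706.4. The Cd8b1 log2 difference of 0.48 lay above the central 95% of genes of like level (-0.36 to 0.36). Cd4 itself gave 271.1 in exposed and 287 in control cells, and its 2 probe sets disagreed in sign. B-cell markers had a summed signal of 1400.9 in exposed and 2162.4 in control cells, all 9 measured members were lower in exposed cells, and Cd79a gave 95.6 and 139.3. Macrophage and dendritic-cell markers summed to 2044.8 in exposed and 2864.3 in control cells, with 8 of 12 lower. The 3 MHC class II genes among them (H2-Eb1, H2-Ab1, H2-Aa), which B cells also express, made up 1850.7 and 2627 of these sums, and the other 13 markers 194.1 and 237.3, with 5 lower and 4 higher of the 9 measured. Lyz1, among these 13, passed the floor in the control only, at 7.5 in exposed and 41.3 in control cells. The defining markers Csf1r, Itgax and Adgre1 were dim in both samples, at 31.4 and 29.1, 17 and 19.4, and 17.8 and 15.2. Natural killer cell markers summed to 760.4 in exposed and 795.8 in control cells, with 3 lower and 1 higher of the 4 compared. Platelet markers summed to 139 in exposed and 157.9 in control cells, with 2 lower and 1 higher of the 3 compared. The RPE markers Rpe65, Rlbp1 and Tyrp1 were under the floor in both samples, and none of 15 RPE markers was above it on both arrays. Of 8 fibroblast markers, the defining Col1a1, Col3a1 and Dcn were under the floor in both samples, and 2 were just above it on both arrays, Col1a2 (17.7 in exposed and 23.6 in control cells) and Lum (20.2 and 16.8). Several of these cell types also express TGF-beta pathway genes, and in bulk RNA fewer cells of a type and less RNA per cell cannot be told apart.

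Smads act on genes through short DNA elements, the Smad box CAGAC and the palindrome GTCTAGAC, and the promoters of the pathway's own genes are shown for that reason. Promoter windows (250 bases before to 50 after the transcription start, from RefSeq, build GRCm38.p6) are given for 5 of the 10 genes. These genes had 6 windows. Member windows on 1 chromosome are not reported here, so a gene without a window here may still have one. The ligand gene Tgfb1 (chr7:25686752-25687051, plus strand), the type II receptor gene Tgfbr2 (chr9:116175314-116175613, minus strand) and Smad3 (chr9:63757945-63758244, minus strand) are printed 5′ to 3′ on the strand of the gene, with CAGAC or its reverse complement in capitals.
Tgfb1: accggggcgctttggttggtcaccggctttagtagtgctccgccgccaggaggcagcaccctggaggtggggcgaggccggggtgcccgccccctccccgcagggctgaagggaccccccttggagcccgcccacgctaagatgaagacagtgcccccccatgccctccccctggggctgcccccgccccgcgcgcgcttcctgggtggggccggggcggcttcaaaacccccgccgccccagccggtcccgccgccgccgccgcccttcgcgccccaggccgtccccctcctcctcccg
Tgfbr2: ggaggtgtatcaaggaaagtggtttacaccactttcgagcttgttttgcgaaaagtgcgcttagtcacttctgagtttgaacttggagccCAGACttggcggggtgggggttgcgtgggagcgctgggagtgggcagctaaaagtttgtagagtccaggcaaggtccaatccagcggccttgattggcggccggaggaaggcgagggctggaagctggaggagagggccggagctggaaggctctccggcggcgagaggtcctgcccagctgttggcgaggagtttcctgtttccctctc
Smad3: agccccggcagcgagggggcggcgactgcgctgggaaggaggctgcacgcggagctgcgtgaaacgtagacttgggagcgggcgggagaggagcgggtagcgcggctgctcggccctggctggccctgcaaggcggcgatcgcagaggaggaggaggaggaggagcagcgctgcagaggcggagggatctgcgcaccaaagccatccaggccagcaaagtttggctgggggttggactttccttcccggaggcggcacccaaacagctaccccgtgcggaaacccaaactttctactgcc
The Tgfbr2 window held 1 CAGAC, beginning 160 bases before the start, while the Tgfb1 and Smad3 windows held none. The Tgfb2 window held 2, and of the 2 Tgfbr1 windows 1 held a single copy. The palindrome was in none of the 6. Counting a match on either strand, CAGAC was present in 49.6% of all 32851 promoter windows of this length and GTCTAGAC in 0.213%. The elements do not contain each other.

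Genes with these letters in a promoter window had a median expression difference near 0, as had those without. Of the 8972 genes that were compared and had a window, 4691 held CAGAC, with a median log2 difference of -0.0057 against -0.015 in the rest. At least 2-fold differences were seen in 1.15% of genes with CAGAC and 0.934% of those without. The palindrome was in 28 genes, with a median of -0.074 against -0.0092 in the rest, and 0 of the 28 differed 2-fold. A match of letters does not show binding.

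Among the ligands, Tgfb1 was slightly lower in RPE-exposed T cells, Tgfb3 was near the limit of measurement, and Tgfb2 was not above the floor in either sample. Tgfb1 encodes the form that T cells mainly make, which acts on the producing cell and its neighbours. Its brighter probe set (1420653_at) had a signal of 492.7 in exposed and 563.9 in control cells, a 1.14-fold lower level. The dimmer one (1445360_at) gave 23.9 and 28.7, and the 2 log2 differences averaged -0.23 ± 0.049 (SD over probe sets). For comparison, the pooled SD of log2 differences over probe sets of 1 gene was 0.22 at mean signals of 100 to 500 and 0.29 under 100. It describes how probe sets of 1 gene disagree, not how samples vary. The central 95% of genes of like level, taken over the same twentieth of mean log2 signals, ran from -0.41 to 0.37, so the Tgfb1 difference of -0.19 lay within the like-level range. Tgfb1 is also made by B cells and macrophages. B-cell markers summed to 1400.9 in exposed and 2162.4 in control cells. Macrophage and dendritic-cell markers other than MHC class II summed to 194.1 and 237.3, with 5 lower and 4 higher of the 9 measured. The part of these cells in the Tgfb1 value was not tested.

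Tgfb3, the ligand isoform reported in pathogenic mouse Th17 cells, had 1 probe set, with a signal of 4.8 in exposed and 24.0 in control T cells. Only the control value was above the floor, so the difference is a bound, at least 1.5-fold lower in exposed cells. The bound of -0.58 lay just below its like-level range of -0.57 to 0.59, as did 2.46% of all genes with theirs. At this level the floor itself narrows the range. Among single probe sets of like level the range was wider, -0.87 to 0.81, and the bound lay within it. Tgfb2, an isoform best known from the eye and other solid tissues, had 4 probe sets, with signals of 0.7 to 6.9 in exposed and 0.7 to 3.4 in control cells. All 8 values were under the floor, so no fold is given.

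Both signalling receptors had nearly equal signals in the samples. Tgfbr2, which binds the ligand, gave 660.7 in exposed and 626.7 in control T cells with its brightest probe set, a log2 difference of 0.08. A second probe set gave 62.5 and 62.9, and the last gave 2.6 and 5, under the floor on both arrays. Tgfbr1, the kinase that activates Smad2 and Smad3, gave 162.6 in exposed and 166.3 in control cells, a log2 difference of -0.03. Its second probe set gave 20.6 and 22.1, and its dimmest gave 15.6 and 16.2, on either side of the floor. These differences lay within their like-level ranges of -0.44 to 0.51 for Tgfbr2 and -0.53 to 0.54 for Tgfbr1.

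Tgfbr3 encodes betaglycan, a membrane proteoglycan without kinase activity that presents ligand, Tgfb2 in particular, to the signalling receptors, and whose shed form can hold ligand back. Its brighter probe set (1433795_at) had a signal of 396.8 in exposed and 252.5 in control T cells, 1.57-fold higher. The dimmer one (1425620_at) gave 60.4 and 34.1, 1.77-fold higher, and the 2 log2 differences averaged 0.74 ± 0.12 (SD over probe sets). The difference of 0.65 lay above the like-level range of -0.46 to 0.41, the dimmer probe set lay above that of probe sets of its own level (-0.77 to 0.71), and 2.51% of all genes lay above theirs. By size it was 252nd from the top of the 11015 genes compared. Of 4779 genes with at least 2 probe sets over the floor in both samples, 17 (0.356%) had every such probe set at least 1.5-fold higher in exposed cells, and Tgfbr3 was 1 of them. The CD8 gene Cd8b1, 983.9 in exposed and 706.4 in control cells, was also higher. The other CD8 gene, Cd8a, gave 694.6 and 568.8, within its like-level range, and its 5 probe sets disagreed in sign. The part of CD8 T cells in the Tgfbr3 value was not tested.

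**Figure D2:**
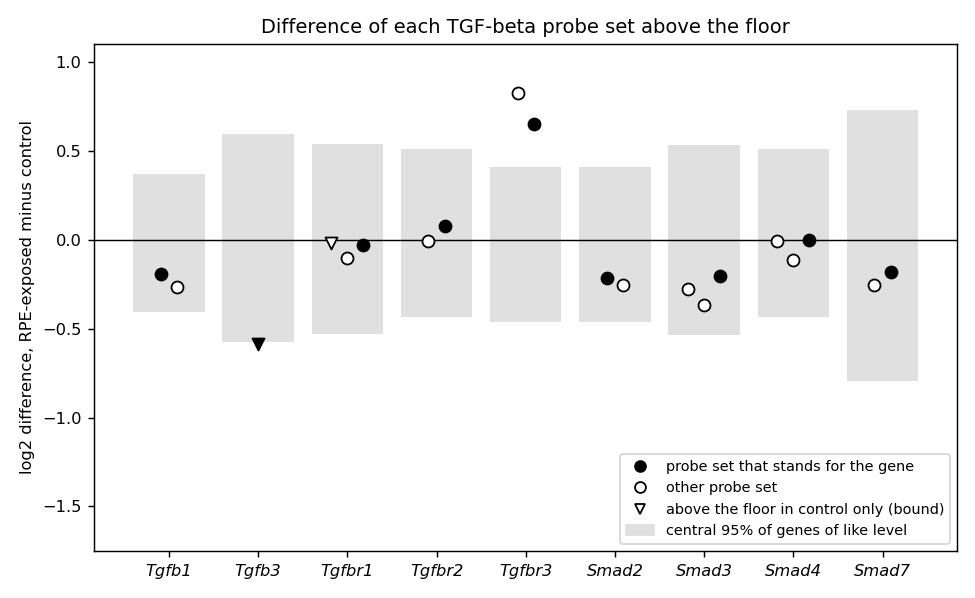
Log2 difference, RPE-exposed minus control, of each probe set above the floor on at least 1 array. Filled symbols stand for the gene, triangles are bounds from a probe set above the floor in control only, and grey bars are the central 95% of differences of genes whose level is like that of the filled symbol; both Tgfbr3 points, at 0.65 and 0.82, lie above the bar, and those of Tgfbr1, Tgfbr2 and the Smads lie inside theirs.

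The Smad genes differed by less than 1.2-fold when the probe set that stands for each was compared. Smad2 and Smad3 encode the Smads that the type I receptor phosphorylates. Smad2 had a signal of 287 in exposed and 333.3 in control T cells, and its second probe set gave 30.2 and 36.1. The 2 differences averaged -0.24 ± 0.029 (SD over probe sets). Smad3 gave 141 in exposed and 162.4 in control cells with its brightest probe set, 35.8 and 46.2 with the next, and 21.3 and 25.8 with the dimmest. All 3 probe sets were lower in exposed cells, with a mean log2 difference of -0.28 ± 0.082 (SD over probe sets).

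Smad4, the common partner that the other Smads need to act on most target genes, had almost the same signal in both samples. Its brightest probe set gave 684.9 in exposed and 685 in control T cells, and the other 2 gave 510.7 and 552.8, and 335.2 and 336.5. Smad7, an inhibitor that TGF-beta itself induces and that blocks the type I receptor, gave 46.9 in exposed and 53.3 in control cells. Its second probe set gave 43.4 and 51.8, and the mean log2 difference was -0.22 ± 0.050 (SD over probe sets). The name of the first Smad7 probe set ends in x, which marks probes that other sequences can share. All 4 Smad genes lay within their like-level ranges, the widest being that of Smad7 at -0.80 to 0.73. Smad2, Smad3 and Smad7 thus had negative differences with each of their 7 probe sets, a count with no share over all probe sets beside it. Their means of -0.24, -0.28 and -0.22 were of the size of the pooled SD of a single probe set (0.22 at signals of 100 to 500, 0.29 under 100). That SD is not a spread between samples, so it does not tell whether these differences would recur.

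**Figure D3:**
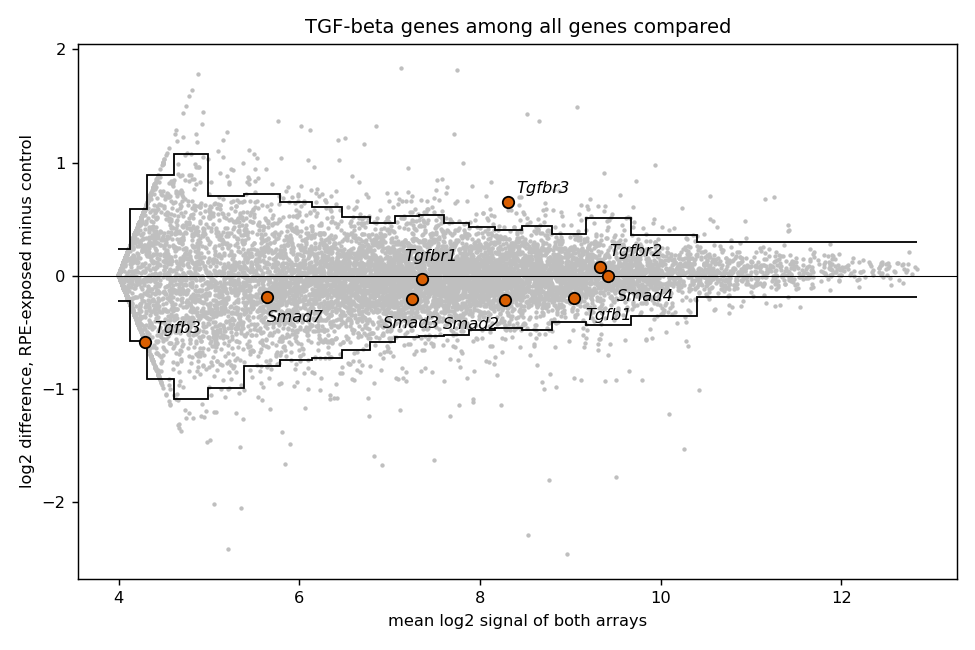
Log2 difference, RPE-exposed minus control, against the mean log2 signal of both arrays for the 11015 genes compared (grey points) and the 9 TGF-beta genes among them (orange points). Black steps are the central 95% of differences in each of 20 level bins; Tgfbr3, at 0.65, lies above the upper step, and Tgfb3, a bound of -0.58, lies just below the lower one.

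The genes around the core pathway were read from 6 lists, drawn up from textbook knowledge with earlier results of these data known. They held 91 different genes, of which 69 were above the floor on at least 1 array and 5 were not analysed here. By the probe set that stands for each gene, none of the 69 was at least 2-fold different, beside 1.06% of all genes. With 1.5-fold as the limit, 2 were higher (3.12% of all genes) and 1 was lower (3.87%). Their median log2 difference was -0.014, against -0.0092 over all genes.

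In the list of latent TGF-beta storage and activation, 7 of 14 genes were compared and the median was -0.22, with 3 positive and 4 negative differences. Nrros, which tethers latent TGF-beta on myeloid cells, had a signal of 275.9 in exposed and 321.3 in control T cells. Itgav, the integrin chain that takes part in ligand release, gave 254.1 and 307.6, but its 2 probe sets above the floor disagreed in sign. Furin, which cleaves the TGF-beta precursor, gave 146 and 140.9. Bounds came from Ltbp4, a latent TGF-beta binding protein gene, at least 1.49-fold lower (2.7 in exposed and 23.8 in control cells), and from the membrane protease gene Mmp14, at least 1.82-fold higher (28.9 and 15.7). Beside Nrros, macrophage and dendritic-cell markers other than MHC class II summed to 194.1 in exposed and 237.3 in control cells. Of the 9 measured, 5 were lower and 4 higher, and the part of these cells in the Nrros value was not tested.

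In the list of activin and bone morphogenetic protein receptors and their Smads, 9 of 14 genes were compared, and the median was -0.087. The activin type II receptor gene Acvr2a had a signal of 27.4 in exposed and 19.3 in control T cells, and Acvr1, a type I receptor gene, gave 22.8 and 18. Lower values came from Smad1, a Smad of the bone morphogenetic protein branch (95.4 and 112), whose 3 probe sets disagreed in sign, and from the type II receptor gene Bmpr2 (39.3 and 46.1). The endothelial type I receptor gene Acvrl1 was at least 1.63-fold lower, with signals of 14.2 in exposed and 26 in control cells. Each of the 5 lay within its like-level range.

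Among the receptor and Smad regulators, 16 of 19 genes were compared, with a median of -0.042. Wwp1, a ubiquitin ligase that acts with Smad7 against the type I receptor, had a signal of 236.2 in exposed and 148.7 in control T cells. It was 1.59-fold higher, above its like-level range of -0.53 to 0.54, and its 3 probe sets gave 0.50 ± 0.15 (SD over probe sets). It was the only gene of the 69 outside its range, beside 2.51% of all genes above theirs and 2.46% below. Pmepa1, a TGF-beta-induced feedback inhibitor of receptor Smads, was 1.42-fold lower, at 81.2 in exposed and 115 in control cells. Smurf2, another ubiquitin ligase that works with Smad7, gave 124.2 and 144.9, with its 3 probe sets at -0.21 ± 0.038 (SD over probe sets). The corepressor gene Ski gave 140.5 and 125.9, and its 2 probe sets disagreed in sign.

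Smad partner factors had a median of 0.048 over 12 of 14 genes. Rbl1, a pocket protein that works with E2F factors and Smad3, gave 756 in exposed and 601.4 in control T cells, and Runx3, a transcription factor of CD8 and Th1 cells that binds Smads, gave 608.6 and 486.1. Both probe sets of Runx3 had positive differences, 0.47 ± 0.21 (SD over probe sets). Beside them, Cd8b1 gave 983.9 in exposed and 706.4 in control cells, and Cd8a 694.6 and 568.8, with probe sets that disagreed in sign. The part of CD8 T cells in the Runx3 value was not tested. Lower values came from the repressor genes Zeb1 (210 and 257.2), with 3 probe sets at -0.29 ± 0.060 (SD over probe sets), and Zeb2, which passed the floor in the control alone (15.1 and 22.8). Runx1 gave 45.8 and 50.8, and its 4 probe sets above the floor disagreed in sign. E2f5 gave 61.7 in exposed and 62.4 in control cells with its brightest probe set. Its 3 probe sets above the floor ran from -0.016 to 2.45, so they disagreed widely.

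TGF-beta response genes were divided evenly in direction, with 9 positive and 9 negative differences among 18 of 24 genes compared and a median of 0.0019. The helix-loop-helix inhibitor gene Id3 had a signal of 81.2 in exposed and 55.9 in control T cells, and the cell-cycle inhibitor gene Cdkn1b gave 388.2 and 297. The lowest were Pmepa1 and Smurf2, which this list shares with the regulators. Foxp3, the regulatory T-cell factor gene, was near the floor at 15.8 in exposed and 18.4 in control cells, and the cell-cycle inhibitor gene Cdkn2b was near it at 19 and 14.1.

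Kinases and adaptors of the branch that does not use Smads had a median of 0.035 over 13 of 14 genes. Map3k7, the TGF-beta-activated kinase, gave 328.7 in exposed and 267.7 in control T cells, although its 4 probe sets above the floor ran from -0.69 to 0.43. The stress kinase gene Mapk9 gave 240.2 and 208.7, and its 3 probe sets above the floor disagreed in sign. Tab1, the activating partner of Map3k7, gave 37.1 and 51.6, and the p38-activating kinase gene Map2k6 gave 27.9 and 38.3. All 4 lay within their like-level ranges.

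**Figure D4:**
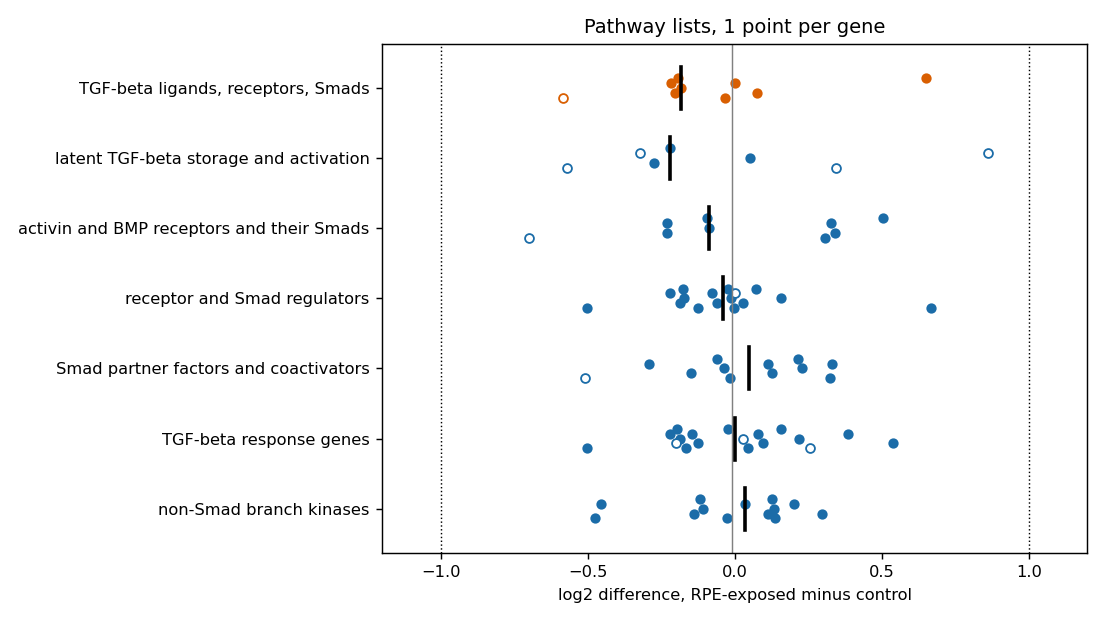
Log2 difference, RPE-exposed minus control, of each gene above the floor on at least 1 array, for the TGF-beta ligands, receptors and Smads (orange) and 6 pathway lists (blue). Open points are bounds from genes above the floor on 1 array only, and black ticks are list medians. The grey line is the median of all genes (-0.0092) and dotted lines mark 2-fold. No gene reaches 2-fold by the probe set that stands for it, and list medians run from -0.22 to 0.048.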

How the data were processed

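The deposited table held 1 linear signal intensity per probe set and array, 45101 in all, 64 of them manufacturer's controls. Per the labels' protocols, total RNA was isolated with Trizol, purified on columns and turned into biotin-labelled cRNA; the software that summarized probes and any detection calls were not stated there. With 2% of probe sets trimmed at each end, each array's mean intensity was 100, so the deposited intensities were already scaled and were not rescaled. Names came from the platform annotation (34945 probe sets with 1 gene, 932 with several, 9160 with none listed, the last 2 kinds left out); of 367 probe sets used for the lists, none needed a new symbol in RefSeq of GRCm38.p6. The probe set of highest mean log2 signal stood for its gene, signals under each array's median were set to that median, and log2 differences (RPE-exposed minus control) were computed in Python 3.11.15 (numpy 2.4.6, pandas 2.3.3, matplotlib 3.10.9 for plots). The like-level range is the central 95% of differences in each of 20 level bins. Steps were tested on simulated data. No array coordinates were used, and promoter sequences are those of RefSeq. The genes and lists were chosen with earlier results of these data known. Named were every probe set of the 10 genes and, per list, the 2 highest and 2 lowest differences measured on both arrays, plus the largest bound each way. E2f5 was added because its probe sets disagreed. With 1 array per group no test was possible. Alternatives changed the floor, the probe set rule and the scaling.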

Additional observations from a re-analysis of the deposited data

How the results depend on the processing

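Under 8 alternatives, Tgfbr3 kept a positive difference of 0.62 to 0.74, and Tgfb1 (-0.23 to -0.15), Smad2 (-0.26 to -0.17) and Smad3 (-0.28 to -0.16) kept negative ones, as did Smad7 (-0.26 to -0.14) in the 7 that gave it a value. The median of the genes compared (7 to 10 of them) ran from -0.22 to -0.032, the last with the floor at the 75th percentile, which left 7. Tgfbr1 (highest 0.011) and Smad4 (highest 0.043) turned positive with median centring only. The value of Tgfb3 depended on the floor: it was -2.32 with the floor at the 25th percentile or with none, and -0.94 with an offset of 16. So the count of genes at least 2-fold lower became 1 in the first of these (25th percentile) and 1 with no floor, where 7.86% and 16.7% of all genes differed 2-fold. The count at least 2-fold higher became 1 with no floor, through Tgfb2 at signals of 6.9 in exposed and 3.4 in control cells. With the floor at the 75th percentile Tgfb3 had no value, so its level is limited by signal over background. The list medians stayed between -0.22 and 0.12, but that of latent storage and activation genes turned to 0.051 with the floor at the 25th percentile or once probe sets with x, s or a suffixes were left out, and to 0.087 with no floor, and those of the other lists, except Smad partners, also changed sign in at least 1 setting. With a lower floor, none or an offset, some lists had 1 or 2 genes past 2-fold in a direction (2 higher and 1 lower among latent storage and activation genes with no floor). Over all genes, median centring gave 62 higher and 59 lower 2-fold differences, against 48 and 69 in the main setting. No paired analysis was possible because each group had 1 array.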
